A study of Mus musculus with 16 samples.

Results

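GFP+ and GFP- cells sorted from newborn cochleas after a block of Notch signalling were compared, using 4 of the 16 libraries of the series: the 2 whose titles read P0 Cochlea DAPT GFP+ and the 2 that read P0 Cochlea DAPT GFP-. All mice carried the Lfng-EGFP transgene (strain B6;FVB-Tg(Lfng-EGFP)HM340Gsat/Mmucd), a bacterial artificial chromosome in which green fluorescent protein (GFP) is under the control of Lfng regulatory sequence. Cochleas were explanted at P0, the day of birth, and kept for 24 hours in medium with B27, EGF and FGF2 and with 10 µM DAPT, a gamma-secretase inhibitor. Cells were then dissociated and sorted. For reference, the same fractions of P0 cochleas kept in 0.04% DMSO, the vehicle (P0 DMSO GFP+ and GFP-), and of cochleas explanted at postnatal day 5 and kept in DAPT (P5 DAPT GFP+ and GFP-) were used, each with 2 libraries per group. The study describes GFP in Deiters', outer pillar, inner phalangeal and border cells and took the brightest cells as GFP+. Cells of low fluorescence, which it takes to be probably inner pillar and inner hair cells, entered neither fraction, so that GFP- cells are not the whole remainder of the cochlea. The GFP- fraction may still hold native hair cells. GFP reports Lfng regulatory activity and can outlast it, and it does not by itself give the origin of a cell. How many cochleas entered a sort is not given in the sources used here, and p-values measure the spread between these samples, which may be technical.

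The organ of Corti holds mechanosensory hair cells, each surrounded by supporting cells. Notch receptors on supporting cells are engaged by Delta and Jagged ligands on hair cells and neighbours. Gamma-secretase then frees the receptor's intracellular part, which joins RBPJ in the nucleus and switches on Hes and Hey repressors that hold down Atoh1, the transcription factor that starts the hair cell programme. In the neonatal cochlea, blocking gamma-secretase is known to raise hair cell genes in supporting cells. The question here was which hair cell and supporting cell genes still told the fractions apart once Notch was blocked.

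The promoter stretches of 4 genes that carry the comparison are shown: Hes5, the Notch target that was near 0 in both fractions, Lfng, whose regulatory sequence drives the reporter, and Atoh1 and Hes6, which were far higher in GFP+ cells. The sequences are from RefSeq, were each found once in NCBIM37, the build of the counts, and are the 250 bases before the RefSeq start, 5′ to 3′. Capitals mark the RBPJ core TGGGAA or its complement TTCCCA, and the E-box CAGCTG, a palindrome of the kind bound by basic helix-loop-helix factors such as ATOH1. The windows were chr4:154334782-154335031 (plus strand) for Hes5, chr5:141083045-141083294 (plus) for Lfng, chr6:64678869-64679118 (plus) for Atoh1 and chr1:93310616-93310865 (minus) for Hes6.
Hes5: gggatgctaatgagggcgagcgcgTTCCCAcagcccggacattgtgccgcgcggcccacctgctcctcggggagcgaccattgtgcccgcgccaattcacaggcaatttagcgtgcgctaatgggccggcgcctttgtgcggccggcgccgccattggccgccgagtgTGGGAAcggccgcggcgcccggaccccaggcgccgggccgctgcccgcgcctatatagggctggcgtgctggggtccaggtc
Lfng: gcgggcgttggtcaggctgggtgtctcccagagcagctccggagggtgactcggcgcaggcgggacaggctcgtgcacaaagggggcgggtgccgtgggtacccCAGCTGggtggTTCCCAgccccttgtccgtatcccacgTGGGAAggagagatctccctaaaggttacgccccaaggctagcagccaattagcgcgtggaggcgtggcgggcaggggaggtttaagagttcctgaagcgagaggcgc
Atoh1: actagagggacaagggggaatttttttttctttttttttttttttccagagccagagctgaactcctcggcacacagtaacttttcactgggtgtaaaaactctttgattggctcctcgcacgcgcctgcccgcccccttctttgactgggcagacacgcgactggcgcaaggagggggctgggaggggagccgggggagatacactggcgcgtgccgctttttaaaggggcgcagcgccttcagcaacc
Hes6: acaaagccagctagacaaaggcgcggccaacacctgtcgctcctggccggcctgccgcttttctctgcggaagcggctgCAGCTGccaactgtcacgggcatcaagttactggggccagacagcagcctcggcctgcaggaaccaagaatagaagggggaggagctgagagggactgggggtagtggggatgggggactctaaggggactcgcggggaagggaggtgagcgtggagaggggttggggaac
The Hes5 and Lfng windows each held 2 RBPJ cores, Lfng and Hes6 each held 1 E-box, and Atoh1 held neither, which says only that these letters are not in this window. Of 32851 windows of this length, 21.6% held the RBPJ core and 13.0% the E-box. Among genes with a window, the E-box was found in 2 of 8 hair cell transcription factors, 3 of 8 Notch ligands, 1 of 5 Notch targets and 4 of 26 supporting cell genes, against 14.7% of all 27025 genes. The RBPJ core was found in 1, 0, 2 and 8 of the same sets, against 24.1% of all genes.

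The 4 libraries held 18835400 and 19651273 counts assigned to genes (GFP+) and 42352624 and 36873695 (GFP-). Values are CPM, counts of a gene scaled to the depth of its library after TMM normalisation over all 16 libraries, and they compare a gene between libraries, not genes with each other. Reads outside genes took 62.02 and 60.47% of the records of the GFP+ libraries and 12.46 and 13.59% of the GFP- libraries, and mitochondrial ribosomal RNA took 20.18 and 21.94% against 0.0876 and 0.0677% of gene counts. The library numbers of the fractions also lie in separate runs, so that fraction and library preparation cannot be told apart. Replicates correlated across genes with r = 0.9862 in GFP+ and r = 0.9955 in GFP-. In bulk samples, fewer cells of a type and less RNA per cell cannot be told apart.

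Atoh1 was at 275 and 237 CPM in the P0 DAPT GFP+ libraries and at 0.615 and 0.416 CPM in the P0 DAPT GFP- libraries. This gene, on chromosome 6 (ENSMUSG00000073043, 64679140 to 64681227), was higher in both GFP+ libraries than in either GFP- library, by 9.06 on the log2 scale (standard error 0.21, adjusted p = 4.1e-06, edgeR quasi-likelihood test, as for every test below). Myo7a, the unconventional myosin used to mark hair cells (chromosome 7, ENSMUSG00000030761, 105199570 to 105268034), was at 264.0 and 248.5 CPM in GFP+ and at 15.4 and 9.23 CPM in GFP- (log2 fold change 4.50, standard error 0.25, adjusted p = 1.84e-05). Lfng, the Fringe glycosyltransferase of the reporter (chromosome 5, ENSMUSG00000029570, 141083295 to 141091497), was at 185 and 178 CPM in GFP+ and at 7.43 and 5.46 CPM in GFP- (log2 fold change 4.94, standard error 0.17, adjusted p = 5.7e-06). All 3 markers thus lay on the GFP+ side with no overlap between the fractions. For Lfng this side was set by the sort, which used a reporter driven by Lfng regulatory sequence, and is no separate result. Under DAPT the GFP+ fraction was rich in RNA of the supporting cell reporter gene and of hair cell genes.

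Of 19241 genes tested, 4911 were called higher in GFP+ (25.5%) and 4623 lower (24.0%). A call needed an adjusted p below 0.01 together with more than a 2-fold difference. The gene lists below are read against these percentages. Over all genes tested the median log2 fold change was -0.01 and the median size was 1.3. The called higher genes had a median GC content of 47.5% and 62.2% of them were protein-coding, against 53.4% and 92.4% of those called lower. The part of library preparation in these differences was not tested.

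Most hair cell genes were on the GFP+ side. The 5 hair cell lists together held 78 genes, of which 76 passed the low-count filter, 61 were called higher in GFP+, 4 lower and 11 neither. Their median log2 fold change was 4.38. In 64 of the 78 both GFP+ libraries lay above both GFP- libraries, in 9 both GFP- libraries lay above, and in 5 the fractions overlapped. The share of all genes without such overlap was not counted, so these counts have no background to be read against. Of the 78, 48 reached a mean of 1 CPM in GFP- cells and 75 did in GFP+ cells.

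**Figure D1:**
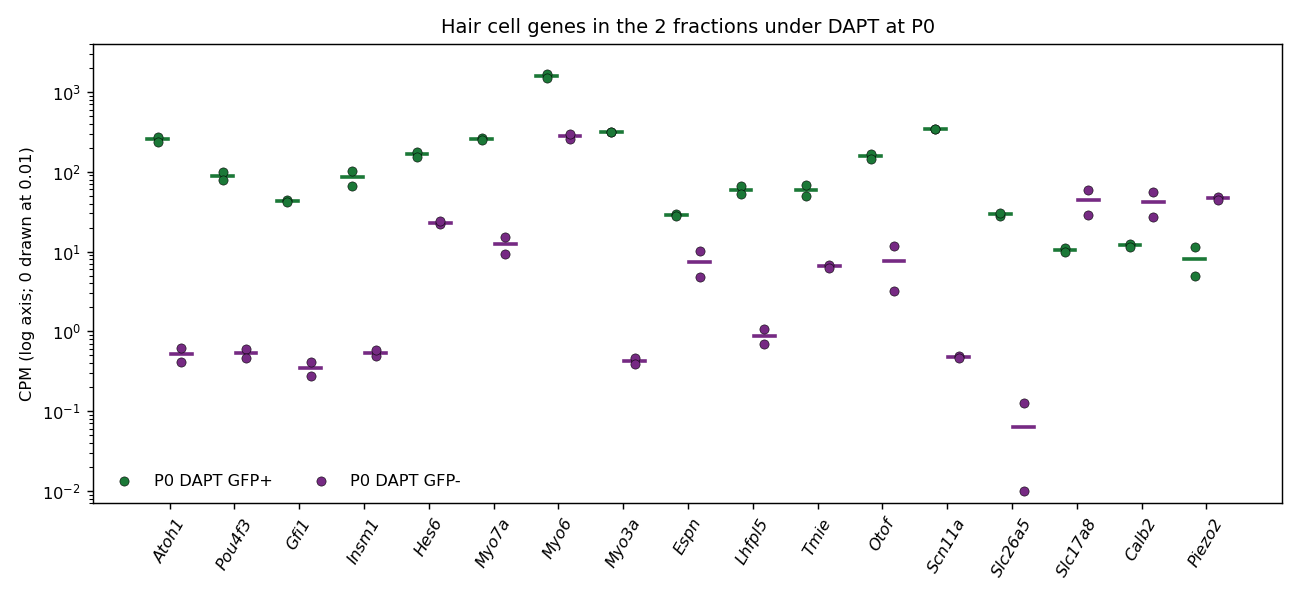
CPM of 17 hair cell genes (log axis, 0 drawn at 0.01) in the 2 GFP+ (green) and 2 GFP- (purple) libraries of P0 cochleas in DAPT; points are libraries and short bars are means. The GFP+ points lie above the GFP- points for every gene shown except Slc17a8, Calb2 and Piezo2, where they lie below.

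Among hair cell transcription factors, 10 of 13 tested were called higher and none lower. Pou4f3, which hair cells need to survive, was at 99.1 and 79.2 CPM in GFP+ and at 0.594 and 0.465 CPM in GFP- (log2 fold change 7.50, standard error 0.22, adjusted p = 4.54e-06). Gfi1, a zinc finger factor that hair cells need to mature, was at 43.8 and 41.7 CPM against 0.276 and 0.416 CPM (7.07, standard error 0.24, adjusted p = 5.17e-06). Insm1, a zinc finger factor of embryonic outer hair cells, was at 66.7 and 103.1 CPM against 0.488 and 0.588 CPM (7.43, standard error 0.31, adjusted p = 8.01e-06). These 3 factors were under 1 CPM in both GFP- libraries. The bHLH gene Nhlh1 and the LIM-homeobox gene Lhx3 had log2 fold changes of 7.97 and 7.84, the splicing regulator Srrm4 7.26 and the homeobox gene Barhl1 6.68. Hes6, a HES family member that marks differentiating hair cells, was the exception in GFP- level, at 179 and 153 CPM in GFP+ and at 22.0 and 24.0 CPM in GFP- (log2 fold change 2.98, standard error 0.13, adjusted p = 1e-05). Ikzf2, an outer hair cell regulator, did not pass (log2 fold change 1.03, adjusted p = 0.0135), and Tbx2, which is needed for inner hair cell identity, was at -0.63 (adjusted p = 0.00569), short of the fold limit. Neurod1 was removed by the filter.

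Of 31 hair bundle and motor genes, 29 were called higher and none lower, with a median log2 fold change of 4.68. Myo3a, a motor of stereocilia tips, was at 316 and 318 CPM in GFP+ and at 0.467 and 0.392 CPM in GFP- (log2 fold change 9.64). Grxcr1 (9.32) and Xirp2 (7.19), both needed for bundle structure, followed. Myo6, expressed beyond hair cells, was at 1683 and 1517 CPM in GFP+ and at 259 and 295 CPM in GFP- (2.65, standard error 0.14, adjusted p = 1.52e-05). The actin bundler Espn was at 29.5 and 28.1 CPM against 4.75 and 10.2 CPM (2.07, standard error 0.35, adjusted p = 0.00184). Only Eps8 (0.20) and Whrn (-0.13) did not pass in this list, with adjusted p of 0.298 and 0.579.

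Of the 7 mechanotransduction genes tested, 6 were called higher. Lhfpl5, a tip link partner of the transduction channel, was at 67.1 and 52.4 CPM in GFP+ and at 1.08 and 0.685 CPM in GFP- (log2 fold change 6.19). Tmie (3.29), Cib2 (2.62) and the channel subunits Tmc1 (2.97) and Tmc2 (4.52) were higher as well. Piezo2 (listed as Fam38b), a stretch-activated channel, was lower, at 4.97 and 11.3 CPM in GFP+ and at 48.7 and 44.1 CPM in GFP- (log2 fold change -2.38, standard error 0.35, adjusted p = 0.000928). Channel components of the hair bundle and Piezo2 thus lay on opposite sides.

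Of 18 genes of the synapse and conductance list, 14 were called higher and 1 lower. The sodium channel gene Scn11a was at 341.5 and 340.8 CPM in GFP+ and at 0.488 and 0.465 CPM in GFP- (log2 fold change 9.60, standard error 0.15, adjusted p = 3.35e-06). Slc26a5, which encodes prestin, the motor of outer hair cells, was at 28.2 and 30.3 CPM in GFP+, and at 0.127 and 0 CPM in GFP- (8.80, standard error 0.54). The cholinergic receptor subunits Chrna9 (6.47) and Chrna10 (6.53), through which efferent fibres act on hair cells, and Otof (4.50, standard error 0.56), the calcium sensor of hair cell exocytosis, were also higher. Otof differed between the GFP- libraries, at 3.25 and 11.9 CPM. Slc17a8, which encodes VGLUT3, the vesicular glutamate transporter of inner hair cells, was at 11.1 and 9.77 CPM in GFP+ and at 59.7 and 29.0 CPM in GFP- (log2 fold change -1.96, standard error 0.33, adjusted p = 0.00183). It was the only member of this list called lower.

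The calcium-binding list was split, with 2 of 7 called higher and 2 lower. S100a1 was at 771 and 867 CPM in GFP+ and at 16.4 and 12.4 CPM in GFP- (log2 fold change 5.96). Calb2, which encodes calretinin, found in inner hair cells and in spiral ganglion neurons, was at 12.5 and 11.4 CPM in GFP+ and at 56.1 and 26.8 CPM in GFP- (-1.67, standard error 0.33, adjusted p = 0.00375). The call of Calb2 was lost without P0 DAPT GFP+ replicate 2 (-1.60, adjusted p = 0.0103) and with all 16 libraries in the fit (-1.80, adjusted p = 0.0898). Sri was at -1.02 and fell short of the fold limit without P0 DAPT GFP+ replicate 2 (-0.997) or P0 DAPT GFP- replicate 1 (-0.96). Pvalb (0.89, adjusted p = 0.0917), Ocm (0.42, adjusted p = 0.659) and Calb1 (-0.63, adjusted p = 0.0427) did not pass. Slc17a8 and Calb2 are also used by neurons, and 8 of 10 neuron genes were called lower in GFP+, among them Tubb3 (-3.83) and Prph (-5.89). The part of neurons, and of the cells of low fluorescence that were not collected, in the levels of Slc17a8 and Calb2 was not tested.

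Genes used to tell inner from outer hair cells did not move as a group: 5 of 9 were called higher, 1 lower. Higher were Insm1, Slc26a5, Bcl11b (2.98) and Neurod6 (9.02) and, at 1.76 and 3.15 CPM in GFP+ against 0.0849 and 0.0734 CPM in GFP-, the inner hair cell gene Fgf8 (5.01). Neurod6 was at 18.2 and 18.2 CPM in GFP+ and at 0 and 0.0734 CPM in GFP-, from 3 counts, a ratio of 534 with a counting interval of 183 to 2590. Slc17a8 was lower, as above. Intervals of this kind cover counting error only.

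Supporting cell genes were not all higher in the GFP+ fraction under DAPT. Of 32 listed, 30 were tested, 16 were called higher in GFP+, 6 lower and 8 neither, with a median log2 fold change of 1.32. In 18 both GFP+ libraries lay above both GFP- libraries and in 10 they lay below. Here too the share over all genes was not counted. Some genes of this list are also made by cells outside the organ of Corti, so that the list does not mark the GFP+ fraction alone.

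On the GFP+ side were regulators and receptors of the organ of Corti. Prox1, a homeobox factor of Deiters' and pillar cells, was at 590 and 495 CPM in GFP+ and at 5.16 and 4.24 CPM in GFP- (log2 fold change 6.98, standard error 0.18, adjusted p = 4.21e-06). Fgfr3, the FGF receptor of pillar and Deiters' cells, was at 909 and 802 CPM against 13.3 and 25.2 CPM (5.60, standard error 0.34, adjusted p = 2.42e-05). Lgr5, a Wnt co-receptor of cells with progenitor potential, was at 740 and 709 CPM against 15.0 and 10.8 CPM (5.94). All 3 were higher in both GFP+ libraries than in either GFP- library. Trhr (9.38), Umodl1 (9.29), Pkd2l1 (8.28) and Slitrk6 (8.01) differed most in the list. Sox2, a factor of sensory progenitors and supporting cells, was at 90.1 and 109 CPM in GFP+ and at 55.4 and 30.1 CPM in GFP- (1.35, standard error 0.27, adjusted p = 0.00399), and fell short of the fold limit without P0 DAPT GFP- replicate 2 (0.93). The cell cycle inhibitor Cdkn1b was higher by 1.30.

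Some genes of the list that were at over 100 CPM in GFP+ cells in DMSO were near 1 CPM or below in GFP+ cells under DAPT. Pdzk1ip1, a small membrane protein gene, was at 0.908 and 1.03 CPM in P0 DAPT GFP+ and at 0.955 and 0.759 CPM in P0 DAPT GFP-, where the replicates overlapped (log2 fold change 0.30, standard error 0.46, adjusted p = 0.572). In P0 DMSO it was at 153 and 135 CPM in GFP+ and at 0.825 and 0.685 CPM in GFP-. The fraction difference was smaller under DAPT than DMSO by 7.38 on the log2 scale (interaction -7.38, standard error 0.30, adjusted p = 0.000192). Its chromosomal neighbour Tal1, a haematopoietic bHLH factor, was at 0.107 and 0.155 CPM in P0 DAPT GFP+ and at 0.255 and 0.269 CPM in P0 DAPT GFP-, too low to be tested, and at 153 and 151 CPM in P0 DMSO GFP+ (interaction -8.70, standard error 0.53, adjusted p = 0.000903). Cysltr2, a leukotriene receptor gene, was at 1.18 and 1.09 CPM in GFP+ and, from 3 counts, at 0.0424 and 0.0245 CPM in GFP-, a ratio of 33.1 with a counting interval of 11.3 to 161, and was called higher (adjusted p = 0.00054), against 207 and 184 CPM in P0 DMSO GFP+ (interaction -6.97, standard error 0.88, adjusted p = 0.00806). Without P0 DMSO GFP+ replicate 2 the interaction of Tal1 missed the limit (adjusted p = 0.0114), and that of Cysltr2 missed it when any 1 of the 4 P0 DAPT or 2 P0 DMSO GFP+ libraries was left out (adjusted p 0.0259 to 0.227). In the P0 DAPT libraries these 3 genes did not go above 1.18 CPM.

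Ttyh1, a chloride channel family gene of glia-like cells, was at 77.1 and 95.3 CPM in P0 DAPT GFP+ and at 86.9 and 81.5 CPM in P0 DAPT GFP- (log2 fold change 0.16, adjusted p = 0.311). In P0 DMSO it was at 688 and 735 CPM in GFP+ and at 81.1 and 23.5 CPM in GFP-, and the interaction of -3.73 (standard error 0.66) missed the limit with an adjusted p of 0.0263. Daam2, a formin of Wnt signalling, was at 19.2 and 10.0 CPM in GFP+ and at 54.1 and 54.6 CPM in GFP- (log2 fold change -1.77, adjusted p = 0.00132), the opposite order of P0 DMSO, where it was at 247 and 334 CPM against 51.1 and 74.1 CPM (interaction -4.11, standard error 0.45, adjusted p = 0.00513). Slc1a3, the glutamate transporter GLAST of inner phalangeal and border cells and of glia, was at 130 and 211 CPM in GFP+ and at 380 and 337 CPM in GFP- (-0.94, standard error 0.22, adjusted p = 0.00781), short of the fold limit, which it passed without P0 DAPT GFP+ replicate 2 (-1.33) or P0 DAPT GFP- replicate 2 (-1.07). Called lower besides Daam2, but without a called interaction against DMSO, were Matn4 (-6.52), Epyc (-4.76), Ednrb (-4.19), Ngfr (-2.79) and Fabp7 (-2.45). Of these, Ednrb, Ngfr and Fabp7 are made by Schwann cells or other neural crest cells too, and 7 of 8 glial genes were called lower in GFP+, among them Foxd3 (-8.27). The part of glia in the order of these genes was not tested.

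**Figure D2:**
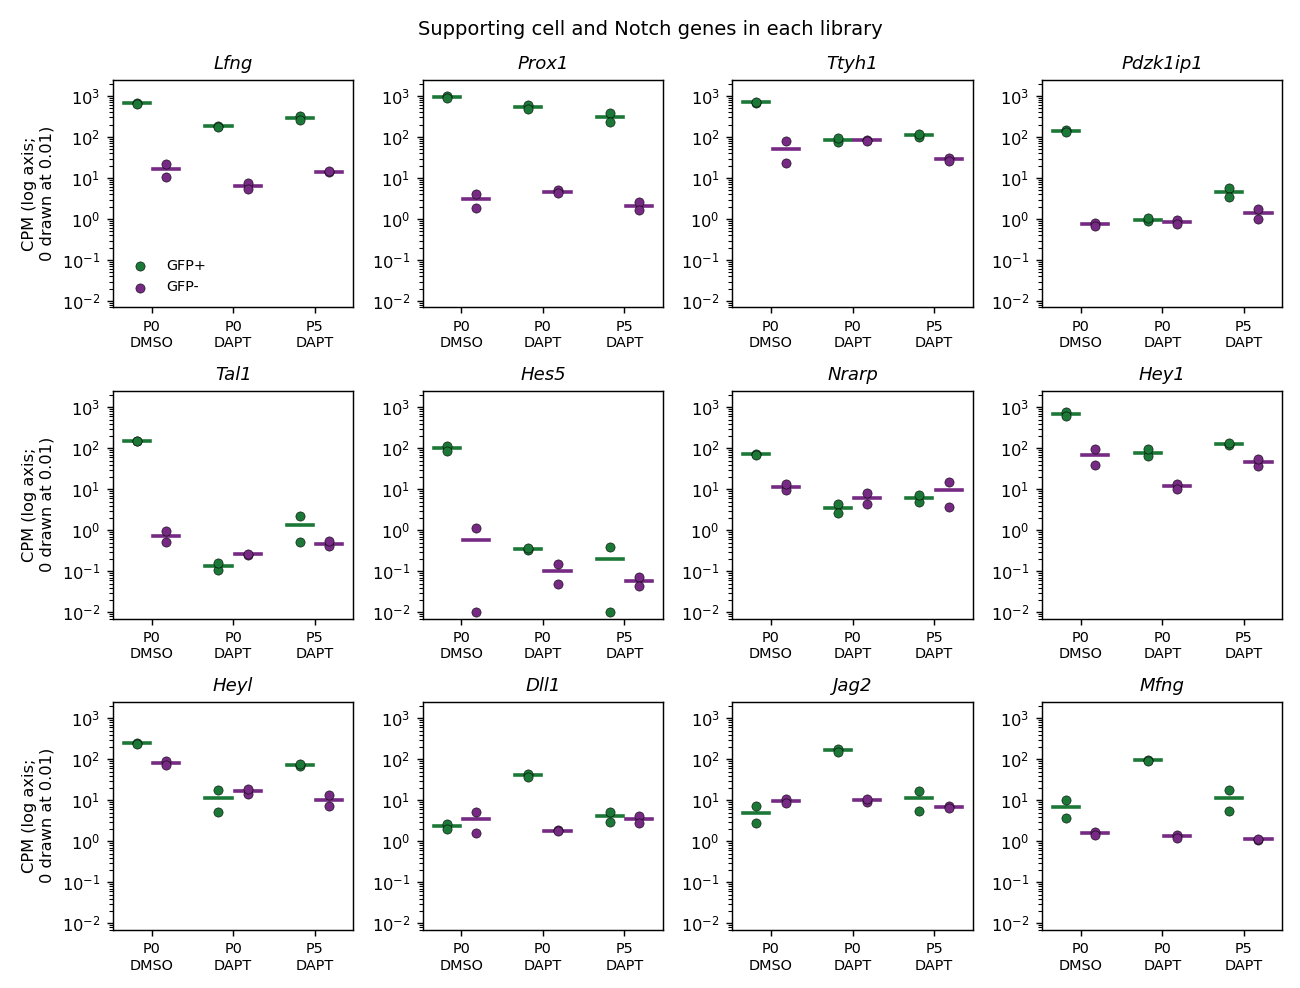
CPM (log axis, 0 drawn at 0.01) of 12 supporting cell and Notch genes in GFP+ (green) and GFP- (purple) libraries of P0 DMSO, P0 DAPT and P5 DAPT cochleas; points are the 2 libraries of a group and short bars their means. Under DAPT at P0 the GFP+ points of Lfng, Prox1, Hey1, Dll1, Jag2 and Mfng lie above the GFP- points, whereas those of Ttyh1 and Pdzk1ip1 overlap.

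Of 8 Notch ligand genes, 5 were called higher in GFP+ under DAPT and 1 lower, with a median log2 fold change of 3.81. The hair cell ligand Dll1 was at 43.3 and 37.7 CPM in GFP+ and at 1.85 and 1.76 CPM in GFP- (log2 fold change 4.61, standard error 0.18, adjusted p = 6.91e-06). Jag2, a further hair cell ligand, was at 179 and 155 CPM against 9.16 and 10.8 CPM (4.19, standard error 0.15, adjusted p = 5.8e-06). In P0 DMSO the levels of both were low in both fractions. Dll1 was at 2.61 and 2.04 CPM in GFP+ and at 1.56 and 5.34 CPM in GFP-. Jag2 was there at 7.28 and 2.75 CPM in GFP+ and at 10.9 and 8.49 CPM in GFP-, and its log2 fold of GFP+ over GFP- was higher under DAPT by 5.01 (standard error 0.53, adjusted p = 0.00479), which missed the limit when any 1 of the 4 P0 DAPT libraries or P0 DMSO GFP+ replicate 2 was left out (adjusted p 0.016 to 0.0238). For Dll1 the interaction was 5.05 (standard error 0.73, adjusted p = 0.013), short of the limit. Dll1 passed it in some alternative fits, as with all 16 libraries in the fit (5.05, adjusted p = 0.00181) and with the GC and length offset (5.04, adjusted p = 0.00856). Jag1, the ligand of supporting cells and of the prosensory domain, was at 307 and 396 CPM in GFP+ and at 42.4 and 29.4 CPM in GFP- (3.42, standard error 0.22, adjusted p = 3.08e-05). Dll3 (6.24) and Dlk2 (6.24) were higher too, and Dlk1, made in mesenchyme, was lower, at 0.32 and 0.259 CPM against 46.7 and 48.7 CPM (-7.22).

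Among 14 receptors and modulators, 5 were called higher and 6 lower. Notch1, the main receptor of supporting cells, was at 202 and 157 CPM in GFP+ and at 116 and 148 CPM in GFP- (log2 fold change 0.57, standard error 0.17, adjusted p = 0.0218), which did not pass. Notch2 was at 15.2 and 19.2 CPM against 100.2 and 155 CPM (-2.77, standard error 0.25, adjusted p = 0.000113), and Notch3 (-1.30) and Notch4 (-2.29) were lower too. Notch4 lost its call without P0 DAPT GFP- replicate 1 (adjusted p = 0.0101) and with the GC and length offset (-1.20, adjusted p = 0.0888). The Fringe enzymes, which set the response of Notch to its ligands, took different sides. Mfng was at 95.2 and 92.2 CPM in GFP+ and at 1.46 and 1.18 CPM in GFP- (6.27, standard error 0.17), as Lfng above, and Rfng was at -1.67, or at -0.45 and not called with an offset for GC content and length. The ligand ubiquitin ligases Neurl1a (2.50) and Mib1 (1.11, short of the fold limit at 0.92 without P0 DAPT GFP- replicate 1 and at 0.55 with the offset) and the Notch antagonist Numb (1.01) were higher, and Pofut1 (-1.20) and the protease Adam17 (-1.32) were lower. Of 7 genes of gamma-secretase, the enzyme DAPT inhibits, Aph1b (1.35) was called higher and Aph1a (-2.57) lower. In the nuclear complex list, Rbpj did not pass (-0.08, adjusted p = 0.529), and 2 of 8 were called lower, among them Kat2b (-1.42). The median log2 fold changes were -0.49 for receptors and modulators, -0.01 for gamma-secretase and 0.05 for the nuclear complex, against -0.01 over all genes.

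Of 10 Notch target genes, 9 were tested, 2 were called higher (22.2%), 1 lower and 6 neither, against 25.5% and 24.0% of all genes tested. Hes5 was at 0.32 and 0.362 CPM in P0 DAPT GFP+ and at 0.149 and 0.049 CPM in P0 DAPT GFP-, from 13 and 9 counts, and was not tested. In P0 DMSO it was at 112 and 84.8 CPM in GFP+ and at 1.13 and 0 CPM in GFP- (interaction -5.66, standard error 2.02, adjusted p = 0.184). This interaction rests on 9 counts in P0 DAPT GFP- and on P0 DMSO GFP- libraries that differed. It was -12.78 without P0 DMSO GFP- replicate 1 and -4.73 without replicate 2. Nrarp, a feedback inhibitor of Notch, was at 4.38 and 2.64 CPM in GFP+ and at 4.39 and 8.05 CPM in GFP- (log2 fold change -0.70, adjusted p = 0.179), against 72.6 and 69.3 CPM in P0 DMSO GFP+. Heyl was at 5.13 and 17.8 CPM in GFP+ and at 13.96 and 19.0 CPM in GFP- (-0.39, standard error 0.52, adjusted p = 0.518), where the libraries overlapped and the sign turned with the GC and length offset (0.22) and without P0 DAPT GFP+ replicate 1 (0.23), while it was called lower without replicate 2 of that group (-1.56, adjusted p = 0.00207), against 252 and 240 CPM in P0 DMSO GFP+.

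Hey1 and Hey2 were the targets called higher. Hey1, a repressor also regulated outside Notch in the prosensory domain, was at 63.6 and 93.1 CPM in GFP+ and at 13.4 and 9.94 CPM in GFP- (log2 fold change 2.87, standard error 0.24, adjusted p = 8.16e-05). In P0 DMSO Hey1 was at 742 and 609 CPM against 38.1 and 95.5 CPM. Hey2, marker of pillar cells, was at 30.9 and 31.3 CPM in GFP+ and at 13.96 and 4.46 CPM in GFP- (1.88, standard error 0.47, adjusted p = 0.00969), and in P0 DMSO at 135 and 138 CPM against 15.5 and 7.51 CPM. Its call was lost without P0 DAPT GFP+ replicate 1 or 2 (adjusted p = 0.0116 and 0.0145) and with the GC and length offset (1.60, adjusted p = 0.0209). Hes1 was at 2.08 and 6.83 CPM in GFP+ and at 17.5 and 17.1 CPM in GFP- (-1.83, standard error 0.49, adjusted p = 0.0129), short of the limit, which it passed without P0 DAPT GFP+ replicate 1 or 2 (adjusted p = 0.00114 and 5.63e-05), and Id3 was called lower (-1.81).

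**Figure D3:**
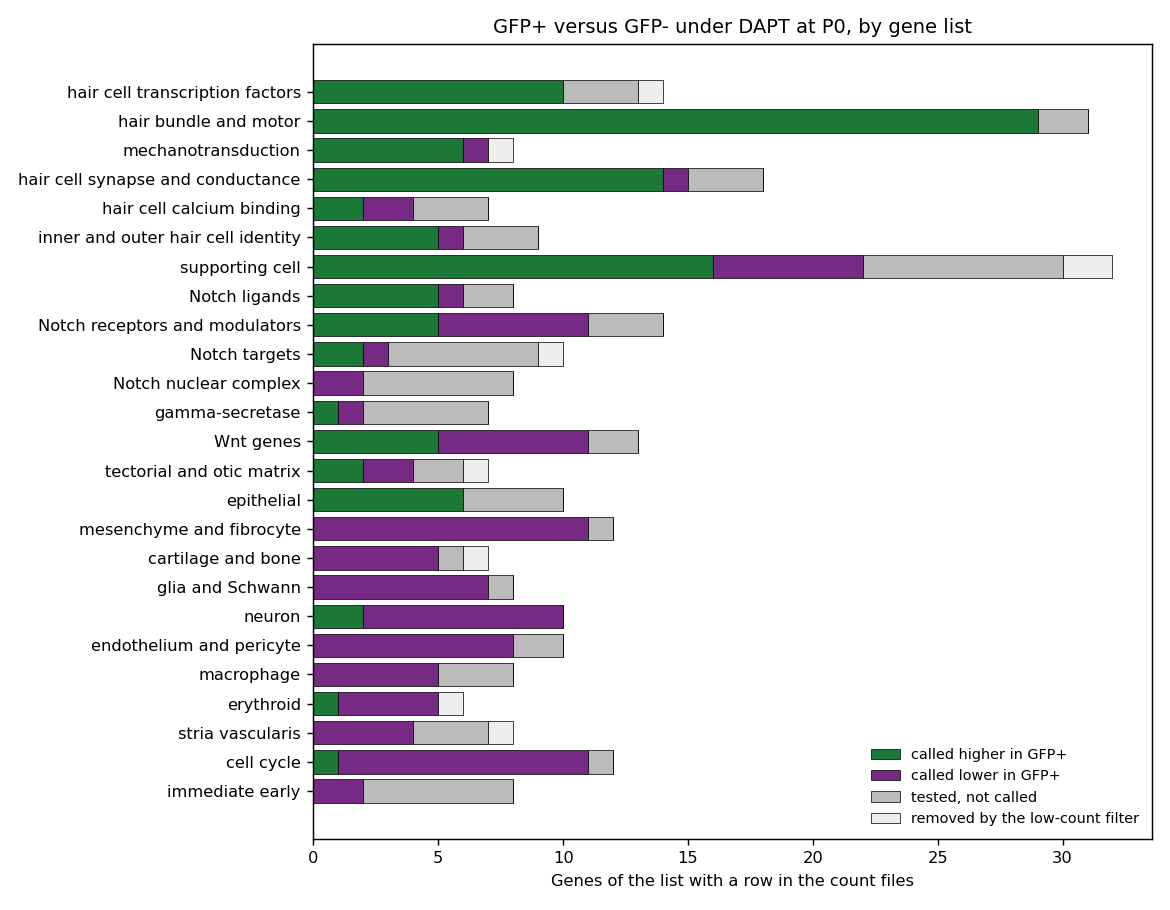
Bars give, for each of 25 gene lists, how many genes with a row in the files were called higher (green) or lower (purple) in GFP+ than GFP- under DAPT at P0, were tested and not called (grey) or were removed by the low-count filter (pale). Green fills most of the hair bundle list (29 of 31) and purple most of the mesenchyme list (11 of 12), and the Notch target list is mostly grey.

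The fractions were also told apart by marker genes of other tissues. Of 10 epithelial genes, 6 were called higher in GFP+ and none lower, with Cdh1, the E-cadherin gene, at 1122 and 940 CPM against 121 and 135 CPM (log2 fold change 3.13). Cldn9 (3.05), Cldn6 (3.04) and Esrp1 (2.81) followed. Of 12 mesenchymal and fibrocyte genes, 11 were called lower and none higher (median -5.31). The same order held in P0 DMSO, with a median log2 fold change of -5.84 for this list. The epithelial median was 2.43 in P0 DMSO and 2.25 under DAPT. Col3a1, a fibrillar collagen gene, was at 14.9 and 36.0 CPM in GFP+ and at 4044 and 3244 CPM in GFP- (-7.03, standard error 0.47). Twist1 (-6.93), Col1a2 (-6.46) and Tbx18 (-6.27) were lower as well. Cartilage and bone genes (5 of 6 tested called lower, Spp1 -6.62, Mgp -5.90), endothelial and pericyte genes (8 of 10, Pdgfrb -5.24), macrophage genes (5 of 8) and globin genes such as Hba-a1 lay on the same side.

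Summed over the 69 genes of the 8 lists of other cell types, the level was 1669 and 2543 CPM in the GFP+ libraries and 21390 and 24690 CPM in the GFP- libraries. Of these, Cx3cr1 and Hba-a2 were among those at 0 in both GFP+ libraries. Of the 66 genes tested, 52 were called lower and 3 higher in GFP+. The 3 were Snap25, a synaptic fusion gene that hair cells also use (2.10), Isl1, a LIM-homeobox gene of the prosensory domain and of neurons (2.00), and Alas2, the erythroid haem enzyme gene (3.30). Snap25 lost its call with all 16 libraries in the fit (1.97, adjusted p = 0.0839).

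**Figure D4:**
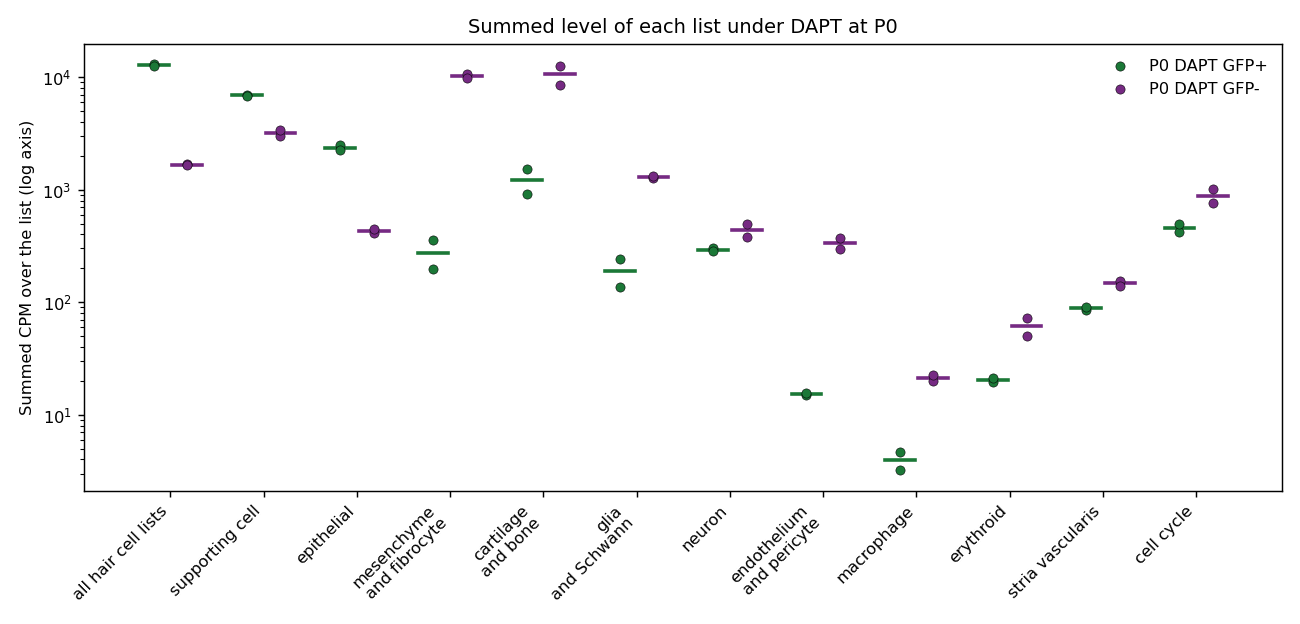
Summed CPM (log axis) of 12 gene lists in each GFP+ (green) and GFP- (purple) library of P0 cochleas in DAPT; points are libraries and short bars means. The sums of hair cell, supporting cell and epithelial lists are higher in GFP+, and those of the other lists are higher in GFP-.

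Summed over the 78 hair cell genes, the level was 13000 and 12550 CPM in GFP+ and 1684 and 1646 CPM in GFP-. In P0 DMSO it was 4535 and 3504 CPM in GFP+ and 1605 and 1635 CPM in GFP-. Abundant genes such as Myo6 weigh most in this sum.

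Cell cycle genes were lower in GFP+ under DAPT in 10 of 12 cases. Cdk1 was at 0.427 and 1.03 CPM in GFP+ and at 55.3 and 29.7 CPM in GFP- (log2 fold change -5.72), and Bub1 (-6.03), Aurkb (-5.46) and Plk1 (-5.02) were similar. The inhibitor Cdkn1a was the exception, at 287 and 352 CPM in GFP+ and at 71.6 and 69.2 CPM in GFP- (2.31). Among 13 Wnt genes, 5 were higher and 6 lower: Fzd4 (3.87), Kremen1 (2.21), Fzd6 (2.16) and Wnt7a (1.85) on the GFP+ side, and Lef1 (-3.80), Wnt5a (-3.23), Dkk3 (-3.10) and Axin2 (-2.62) on the GFP- side. Of tectorial membrane and otic matrix genes, Tectb (4.16) and Otog (1.81) were higher and Col9a1 (-4.71) and Col11a2 (-3.60) lower. In the stria vascularis list 4 of 7 tested were lower, with Dct at -5.32 and Cldn11 at -3.59. Immediate early genes varied between replicates, with Fos at 49.3 and 196 CPM in GFP+ and at 88.2 and 858 CPM in GFP-, and of 8 only Junb (-4.01) and Ier2 (-4.69) were called, both lower. Junb lost its call without P0 DAPT GFP+ replicate 2 (adjusted p = 0.0103) and with the GC and length offset (-2.48, adjusted p = 0.0276).

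Among the 10 genes with the largest rise in GFP+ over all genes, most were non-coding. Gm16351, Gm15472, Gm17566, Gm15482 and a 5S_rRNA row had no count in either GFP- library and were at least 358-fold, 349-fold, 339-fold, 318-fold and 295-fold higher in GFP+, taking 3 counts over the group as the limit that a count of 0 allows. Gm15414 (10.46), mmu-mir-689-2 (10.58) and Gm13964 followed, the last with 1 count in GFP-. Gad2, a glutamate decarboxylase gene, was among them too, at 239.7 and 153.7 CPM in GFP+ and at 0.17 and 0.0734 CPM in GFP- (10.70, standard error 0.39). The GFP+ libraries also held the larger share of reads outside genes, given above, and its part in these rows was not tested. The 10 with the largest fall were Hba-a1, Zic2 (-8.39), Foxd3, Emilin1 (-8.24), Ramp2, Aqp1 (-7.79), Pear1 (-7.77), Cebpa, Twist2 (-7.48) and Col8a2 (-7.45), genes of blood, neural crest, vessel and connective tissue cells. Zic2, a factor of periotic mesenchyme and neural tissue, was at 0.107 and 0.931 CPM in GFP+ and at 197 and 190 CPM in GFP-. The lower group of Hba-a1, Ramp2 and Cebpa rested on 1 or 2 counts, with counting intervals of the ratio of 174 to 38300, 81.3 to 2420 and 60.7 to 1810.

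To ask whether DAPT itself changed what told the fractions apart, the fraction difference under DAPT was tested against that in DMSO. Over the 76 hair cell genes tested in both, the median log2 fold change of GFP+ over GFP- was 4.38 under DAPT and 1.65 in DMSO, and 67 had the higher value under DAPT. Over 30 supporting cell genes the medians were 1.32 and 2.51, and 11 had the higher value under DAPT. The median interaction was 1.96 over the hair cell genes tested and -0.86 over the supporting cell list, against -0.08 over all genes tested. The share of all genes with the higher value under DAPT was not counted. Both sets of genes were chosen with earlier results of these data known, which may set part of their shifts. The comparisons share no library.

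**Figure D5:**
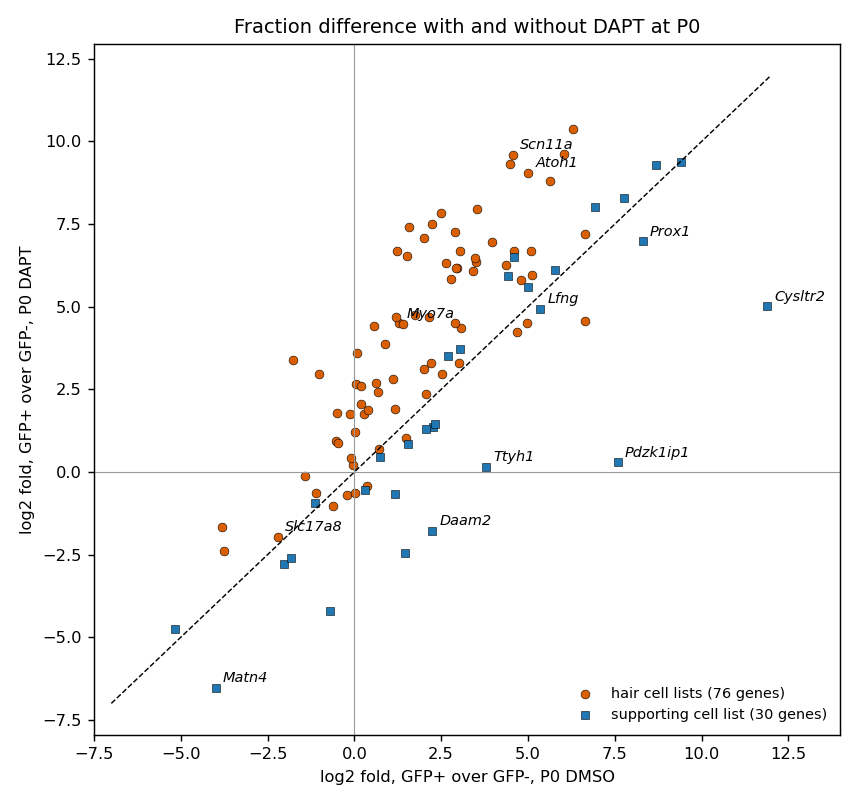
Each point is a gene of the hair cell lists (orange circles) or the supporting cell list (blue squares), at its log2 fold of GFP+ over GFP- in P0 DMSO (horizontal) and P0 DAPT (vertical); the dashed line marks equal values. Of 76 hair cell genes 67 lie above the line, and 11 of 30 supporting cell genes do.

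Gene by gene, fewer passed. Of 23285 genes tested, 99 were called shifted toward GFP+ under DAPT (0.425%) and 76 toward GFP- (0.326%). A shift is signed: toward GFP+ means a higher log2 fold of GFP+ over GFP- under DAPT, whatever the size of the difference on either side. Of the calls 56.6% were toward GFP+, against 75.6% with an offset for GC content and length. The majority turned in 5 of the 8 fits that left out 1 library, as in that without P0 DAPT GFP- replicate 2, with 3 calls toward GFP+ and 9 toward GFP-. Of the 77 hair cell genes tested, 7 were called toward GFP+ and none toward GFP-: Hes6 (3.90, standard error 0.41, adjusted p = 0.00413), Myo15 (3.56), Pdzd7 (3.75), Myo6 (2.50), Stard10 (1.64), Cacnb2 (2.91) and Scn11a (4.94). Scn11a was at 5.27 and 3.21 CPM in P0 DMSO GFP+. Atoh1 had an interaction of 3.96 with a standard error of 1.02 and missed the limit (adjusted p = 0.0867). Atoh1 was at 8.29 and 5.29 CPM in P0 DMSO GFP+ and at 0.391 and 0 CPM in P0 DMSO GFP-. The sign of its interaction turned without P0 DMSO GFP- replicate 1 (-1.70), which left only the library at 0 CPM in that group. Without replicate 2 of that group the interaction was 4.83. Myo7a (3.12, standard error 0.89, adjusted p = 0.109), Pou4f3 (5.16, adjusted p = 0.0371), Gfi1 (4.96, adjusted p = 0.0586) and Insm1 (5.77, adjusted p = 0.0111) missed the limit too. Each of these passed it with the DESeq2 Wald test (adjusted p = 0.00432, 5.52e-06, 0.000223 and 2.18e-12), which called more genes in all. Lfng did not pass (-0.51, standard error 0.45, adjusted p = 0.599). The shift of Myo6 missed the limit when any 1 of the 4 P0 DAPT or 2 P0 DMSO GFP+ libraries was left out (adjusted p 0.0258 to 0.0474).

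Of 32 supporting cell genes tested, 4 were called toward GFP- under DAPT, the Daam2, Cysltr2, Tal1 and Pdzk1ip1 described above, and none toward GFP+. Tal1, Cysltr2 and Pdzk1ip1 head the study's own table of genes that fell under DAPT in P0 GFP+ cells, from these same samples. The list was chosen with earlier results of these data known, so these calls are not separate support. Notch3 (-2.06) among the receptors, Dkk3 (-3.06) among Wnt genes and Kcnj10 (-1.72) in the stria list shifted toward GFP-, and Cldn11 (2.54) and Jag2 toward GFP+. Cldn11 was lower in GFP+ with both agents, by a log2 fold of -6.23 in DMSO and -3.59 under DAPT. The P0 DMSO GFP- replicates differed widely, with r = 0.9744 across genes and Mgp at 159 and 2379 CPM. Without replicate 1 of that group 952 genes were called and without replicate 2, 687, of them 14 and 24 hair cell genes toward GFP+. Leaving out any other library left 3 to 19 genes and 0 to 2 hair cell genes. The P0 DMSO GFP+ libraries had 8.57 and 7.63% of records with several alignments against 4.45 and 4.43% in P0 DAPT GFP+, and their library numbers lie in a run of their own, so that agent and library run cannot be told apart.

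To place the newborn difference beside an older stage, it was tested against that of P5 cochleas in DAPT. Over the 76 hair cell genes tested in both, the median log2 fold change was 4.38 at P0 and 2.60 at P5, and 64 had the higher value at P0. The median interaction over the hair cell genes tested was 1.71, against -0.04 over all genes tested. The share of all genes with the higher value at P0 was not counted. Of 21291 genes tested, 178 were called shifted toward GFP+ at P0 (0.836%) and 103 toward GFP- (0.484%). Of the calls 63.3% were toward GFP+, against 51.5% when libraries were scaled by totals without mitochondrial genes. The majority turned with the DESeq2 Wald test (45.8%), without a filter on low counts (37.5%) and without P5 DAPT GFP+ replicate 1 (46.2%). Of 76 hair cell genes tested, 21 were called toward GFP+ at P0 and 1 toward GFP-, Calb1 (-3.09, adjusted p = 0.00461). In the supporting cell list Sall1 (2.09) was called toward GFP+ and Ttyh1 (-1.89) toward GFP-.

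Pou4f3 was at 5.3 and 4.25 CPM in P5 DAPT GFP+ and at 0.69 and 1.12 CPM in P5 DAPT GFP-, and its fraction difference was larger at P0 by 5.01 (standard error 0.40, adjusted p = 0.00101). Lhx3 (5.02), Nhlh1 (4.81), Gfi1 (3.81, standard error 0.45, adjusted p = 0.00432) and Srrm4 (3.24) were the other transcription factor list members called toward GFP+ at P0. Gfi1 missed the limit when any 1 of the 4 P0 DAPT or 2 P5 DAPT GFP- libraries was left out (adjusted p 0.0142 to 0.0278). In the bundle list 10 of 31 were, among them Grxcr1 (5.07), Espnl (3.73) and Myo6 (2.32, adjusted p = 0.0133 without P0 DAPT GFP+ replicate 1). Atoh1 was at 13.2 and 2.78 CPM in P5 DAPT GFP+ and at 0.0238 and 0.0447 CPM in P5 DAPT GFP-, and its interaction of 1.30 had a standard error of 2.15 (adjusted p = 0.805). The Atoh1 levels of both fractions were lower at P5 than at P0. Myo7a (2.75, adjusted p = 0.038) and Lfng (0.51, adjusted p = 0.299) did not pass. Slc26a5 was in P5 DAPT at 89.3 and 70.4 CPM in GFP+ and at 1.83 and 2.35 CPM in GFP- (interaction 3.44, adjusted p = 0.0272). In the Notch ligand and target lists Dll1 (4.29), Id1 (1.43) and Id2 (1.44) were called toward GFP+ at P0. Dll1 missed the limit when any 1 of the 4 P0 DAPT libraries was left out (adjusted p 0.0132 to 0.0212).

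The count of 281 genes fell to 31 without P0 DAPT GFP+ replicate 1, 77 without replicate 2 of that group, 46 and 37 without P0 DAPT GFP- replicates 1 and 2, and 125 and 112 without P5 DAPT GFP- replicates 1 and 2, and rose to 537 without P5 DAPT GFP+ replicate 1. The hair cell genes called toward GFP+ were 5 to 12 in those of these fits with the fewer calls and 25 in the last. In P5 DAPT GFP+ libraries the mesenchyme list summed to 744 and 2227 CPM, against 199 and 354 CPM in P0 DAPT GFP+, and the part of this in the difference between ages was not tested.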

How the data were processed

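RNA-seq libraries of sorted Lfng-EGFP cochlear cells were used, 2 per group, grouped by title. The authors aligned paired reads to mm9 with TopHat (version 1.4.0 per the submitters' processing notes, which also name HTSeq and DESeq 1.9.2) and deposited raw counts per Ensembl gene. TruSeq libraries were made after a first NuGEN Ovation amplification, which the study's supplement states for cDNA of these sorted cultures and its methods for samples of few cells. Whether both fractions were amplified alike could not be settled from these sources. Amplification can alter GC representation and the share of reads outside genes. Each file lists 36536 genes and 5 closing lines that name no gene, which stayed out of library sizes and tests. Reads outside genes took 50.05 to 62.02% of records in GFP+ libraries and 6.64 to 13.73% in GFP- libraries. Gene totals were 13755356 to 45465324 per library. Strand settings are not given in the sources used here, so overlapping, antisense and near-identical genes (the globins) are uncertain.

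Low counts were removed with filterByExpr (minimum count 10, minimum total 15), and edgeR 4.0.16 (R 4.3.3) was run with its quasi-likelihood F test after TMM scaling, without a replicate block, on only the groups compared, with Benjamini-Hochberg adjustment over all genes tested. The interactions used the 8 P0 libraries and the 8 DAPT libraries. A call needed an adjusted p below 0.01 together with more than a 2-fold difference, the limits of the study. The standard error is the log2 fold change divided by the square root of F. Symbols covered 34391 genes. Positions are from GENCODE M1 (NCBIM37). Tests were tested on simulated data with 200 genes changed 4-fold. Both interactions recovered far fewer of these genes than the test between the fractions, so an interaction that missed the limit does not show equal differences. Alternatives were DESeq2 1.42.0, other scalings, filters, limits and gene sets, GC and length offsets, thinning to 13755356 counts, the replicate block, and leaving out each library.

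The members and the 25 gene lists were chosen with earlier results of these data known. Named genes are the markers, the core genes of the lists, up to 4 per list and direction with the largest change among called genes whose higher group reached a mean of 10 CPM without overlap, and the 10 (interactions: 5) largest per direction over all genes. Other list members are named as examples, after their values were seen. Of 282 distinct listed genes, 277 had a row. Some genes of the lists and of the named-gene rule are counted but not reported here.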

Additional observations from a re-analysis of the deposited data

Results flagged for a closer look

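The fraction difference of these genes differed between agents or ages by the test of the difference itself (the interaction in edgeR, each called). Values are signed differences of the log2 fold of GFP+ over GFP-, and a negative one can go with a difference that grew in size. That log2 fold was higher under DAPT than DMSO at P0 for Igll1 (8.28), Sstr2 (6.91), Pmaip1 (5.96), Eya2 (5.93), Vwa5b2 (5.49), Jag2 (5.01) and Myo6 (2.50). Of these, Eya2, Vwa5b2 and Jag2 stand in the study's own table of genes most raised by DAPT in P0 GFP+ cells. That table is from these same samples, so they are not separate support. Sstr2 and Pmaip1 lost their call when any P0 DAPT library or either P0 DMSO GFP+ library was left out. Igll1 lost its call in the same fits except that without P0 DAPT GFP+ replicate 1, and with thinning (7.96, adjusted p = 0.0491, edgeR). Vwa5b2 lost its call without either P0 DMSO GFP+ library, and the limits of Jag2 and Myo6 are given above. Igll1, a surrogate light chain gene of B cell precursors, was at 28.1 and 50.7 CPM in P0 DAPT GFP+ and at 0.321 and 0.255 CPM in P0 DMSO GFP+. Eya2, a transcriptional cofactor, was at 91.8 and 81.8 CPM against 1.97 and 1.48 CPM in the same groups and at 34.3 and 27.9 CPM in P0 DAPT GFP-, and its log2 fold turned from -4.41 in DMSO to 1.61 under DAPT. The log2 fold was lower under DAPT for Tal1 (-8.70), Pdzk1ip1 (-7.38), Cysltr2 (-6.97), Dgat2 (-6.34) and Slitrk2 (-5.16). All of them stand in the study's table of genes that fell most under DAPT in P0 GFP+ cells, from these same samples. Slitrk2 lost its call without either P0 DMSO GFP+ library, and the limits of Tal1 and Cysltr2 are given above. Dgat2, an enzyme of triglyceride synthesis, was at 1.12 and 1.09 CPM in P0 DAPT GFP+ and at 50.0 and 58.4 CPM in P0 DMSO GFP+. Its log2 fold turned from 2.81 to -3.43 under DAPT, and that of Slitrk2 from 2.67 to -2.40.

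Under DAPT the log2 fold of GFP+ over GFP- was higher at P0 than P5 for Rbm24 (7.20), Pax2 (6.35), Slc16a5 (5.84), Nfkbib (5.77), Gng8 (5.72), Pou4f3 (5.01), Dll1 (4.29), Gfi1 (3.81) and Myo6 (2.32). Pax2 lost its call when any library of the comparison was left out, with totals without mitochondrial genes, with protein-coding genes only and with thinning. Gng8 lost its call without any P0 DAPT or P5 DAPT GFP- library. Gng8 and Pou4f3 lost it with all 16 libraries in the fit, and the limits of Dll1, Gfi1 and Myo6 are given above. Rbm24, an RNA-binding protein gene, was at 187 and 181 CPM in P0 DAPT GFP+ and at 1.04 and 0.71 CPM in P0 DAPT GFP-, against 28.1 and 30.0 CPM and 19.1 and 21.4 CPM at P5. The log2 fold was lower at P0 for Mst1r (-5.80), Fam111a (-4.96), Lrrc7 (-4.95), Ccdc69 (-4.65) and 5430435G22Rik (-4.62). Mst1r, Fam111a and Lrrc7 lost their call when any P0 DAPT library was left out and with all 16 libraries in the fit. Ccdc69 and 5430435G22Rik lost theirs in some alternative fits. Mst1r (-8.20 at P0, -2.44 at P5), Fam111a (-6.65, -1.74) and 5430435G22Rik (-5.59, -1.03) were lower in GFP+ at both ages, by more at P0. Lrrc7 (-0.41, 4.49) and Ccdc69 (-2.37, 2.22) differed in sign between the ages. Mst1r rested on 1 count in P0 DAPT GFP+.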

How the results depend on the processing

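Of 9534 genes called between the fractions under DAPT, every alternative run gave a count within 1.5 times, 7242 to 9528 when 1 library was left out and 9621 with the replicate block. Hair cell genes called higher were 61 (58 to 63 without 1 library) and supporting cell genes 16 (14 to 17). The 2 same-numbered pairs of P0 DAPT fractions had deviations that correlated at 0.13. Over all pairs of groups in the interactions the values ran from -0.042 to 0.427 against DMSO, the highest between the GFP- groups, and from 0.086 to 0.24 against P5. With 2 pairs and no label that ties them, the samples share only a number.

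The interactions depended on the settings. Against DMSO, 175 calls became 1066 with the DESeq2 Wald test (6320 adjusted p were NA), 287 with a GC and length offset, 288 with that offset and the replicate block, 293 with all 16 libraries, 473 without a filter and 715 at an adjusted p of 0.05, with 184 under the replicate block and 3 to 952 without 1 library. The 7 hair cell genes became 31, 11, 13, 12, 17 and 19 in the same order, with 9 under the replicate block and 0 to 24 without 1 library. Against P5, 281 calls became 1279 (Wald, 4541 NA), 548 (offset and block), 1775 (no filter) and 1030 (adjusted p of 0.05), with 410 under the replicate block and 31 to 537 without 1 library. The 21 hair cell genes became 36 (Wald), 11 (all libraries), 38 (no filter) and 34 (adjusted p of 0.05), with 25 under the replicate block and 5 to 25 without 1 library. The causes were not tested.

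Signs turned for these log2 values. Between the fractions, Heyl turned with the offset (0.22), with the offset and block (0.0226) and without P0 DAPT GFP+ replicate 1 (-1.56 to 0.23 without 1 library). Against DMSO, leaving out 1 library gave -1.70 to 4.83 for Atoh1, -0.30 to 1.04 for Fgfr3 and -0.28 to 0.40 for Slc1a3. Against P5, Hes1 turned with other totals (-0.11), the replicate block (-0.044) and thinning (-0.14), and leaving out 1 library gave -1.04 to 0.66 for Hes1, -0.91 to 5.81 for Hes5, -1.55 to 0.0937 for Hey2, -0.75 to 0.35 for Espn, -0.66 to 0.0807 for Prox1 and -1.51 to 0.47 for Nrarp. Of 1783 values of 128 named genes between the fractions, 1734 kept direction and side of the limit, 32 lost and 14 gained the call. The median over all genes moved from -0.01 to 0.22 with all 16 libraries and to 0.57 without a filter.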
